A study of Mus musculus with 47 samples.

Results

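The BCL2 family decides whether a cell opens its mitochondria and dies. The genes described here are 7 of its members, *Bcl2*, *Bcl2l1*, *Mcl1*, *Bcl2l11*, *Bak1*, *Bid* and *Bad*, taken as every probe set that the platform table pairs with 1 of these symbols alone. They have 22 probe sets among 22690 on the array, and all 7 were among the 8810 genes tested, of 12393 genes with a symbol of their own.

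Proteins of this family either guard the outer mitochondrial membrane or break it. BCL2, BCL-XL (the product of *Bcl2l1*) and MCL1 are anti-death members that hold the pore former BAK (*Bak1*) and the killer proteins in check. BIM (*Bcl2l11*), BID and BAD are BH3-only killers that block the guards or switch on the pore formers. In the thymus, immature CD4+CD8+ thymocytes are known to lean on BCL-XL and MCL1, mature T cells on BCL2, and BIM is the killer of thymocytes that react to self.

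Transcript levels were measured on 1 Affymetrix array per tumour in 47 mouse T-cell lymphoblastic tumours of 14 genetic backgrounds. The transgenic backgrounds were TLX1 (6 tumours), ThPOK, LMO1, Nup98HoxD13 and beta-catenin (3 each), Tal1 and Pokemon (2 each), and the double transgenic Tal1-LMO2 and olig1-LMO1 (3 each). The others were p53 knockout (3), E2A knockout and rag E2A knockout (2 each), Ikaros Plastic (3) and *Cdkn2a* knockout with retroviral insertional mutagenesis (9). All were tumour cells labelled T-cell lymphoblasts, and TLX1 transgenic tumours are the ones labelled TLX1 positive. The labels give no strain, age, transgene promoter or normal thymus, and do not state whether each tumour came from its own mouse, so p-values measure only the spread between these samples.

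Values are MAS5 signals in arbitrary units, with array medians of 49.6 to 106. Of 6 measured T-cell markers, 4 to 6 exceeded the array median in every tumour except p53 knockout tumour 2, with 1 of 6. Its summed T-cell signal of 1520 was the lowest of the series (median 13720), and its summed endothelial (11755) and stromal (17350) signals were the highest. TLX1 tumour 2 had the highest myeloid sum, 40268, against at most 9628 outside the TLX1 tumours. *Lmo1* read 522 to 2344 in LMO1 tumours and 586 to 2526 in tumours labelled Nup98HoxD13, but 11.1 to 34.3 in tumours labelled olig1-LMO1. These last 2 groups are therefore called by their label only. RNA of the TLX1 tumours also stood apart: the mean log2 ratio of 3' to 5' control signals was 2.79, 2.55 and 1.94 in TLX1 tumours 2, 5 and 6 and 0.37 to 0.90 in the other 3, against −0.17 to 0.97 in the tumours of the other 13 backgrounds. In bulk samples such as these, fewer cells of a type and less RNA per cell cannot be told apart.

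The 250 bases upstream of a transcription start are shown for the anti-death members and for BIM, because these 4 genes carry the comparisons below. They come from RefSeq on build GRCm38.p6, first listed start of each gene, 5′ to 3′ on the gene's strand. *Bcl2* is at chr1:106714291-106714540 (minus strand), *Bcl2l1* at chr2:152828490-152828739 (minus), *Mcl1* at chr3:95658471-95658720 (plus) and *Bcl2l11* at chr2:128125788-128126037 (plus). The *Bcl2* and *Bcl2l11* windows end where the annotated genes begin, and the other 2 lie within their genes' annotated spans (*Bcl2l1* chr2:152758732-152833803, *Mcl1* chr3:95656944-95663179), and the table lists further starts upstream for *Bcl2l1*. Capitals mark matches, on either strand, to the E-box CANNTG that E2A and Tal1 are known to bind.
Bcl2: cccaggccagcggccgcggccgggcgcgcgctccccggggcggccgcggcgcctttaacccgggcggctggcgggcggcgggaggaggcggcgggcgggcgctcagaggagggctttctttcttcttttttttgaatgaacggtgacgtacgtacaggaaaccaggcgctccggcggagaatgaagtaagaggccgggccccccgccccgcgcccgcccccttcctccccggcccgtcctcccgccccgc
Bcl2l1: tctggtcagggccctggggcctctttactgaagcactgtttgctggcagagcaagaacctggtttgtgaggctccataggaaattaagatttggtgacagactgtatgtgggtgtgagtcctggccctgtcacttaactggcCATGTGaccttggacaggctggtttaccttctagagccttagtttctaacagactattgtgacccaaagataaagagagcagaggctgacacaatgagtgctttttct
Mcl1: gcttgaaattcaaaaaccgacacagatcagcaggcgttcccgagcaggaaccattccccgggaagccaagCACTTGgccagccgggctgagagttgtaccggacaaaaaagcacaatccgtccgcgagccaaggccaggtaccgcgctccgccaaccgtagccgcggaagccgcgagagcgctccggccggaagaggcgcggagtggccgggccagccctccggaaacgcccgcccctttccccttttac
Bcl2l11: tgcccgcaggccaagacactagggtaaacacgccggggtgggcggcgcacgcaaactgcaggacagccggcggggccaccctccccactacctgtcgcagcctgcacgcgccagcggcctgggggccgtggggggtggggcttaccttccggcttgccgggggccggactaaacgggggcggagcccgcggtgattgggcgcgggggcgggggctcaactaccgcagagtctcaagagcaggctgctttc
An E-box was found in 6 of the 11 windows listed for the 7 members, against 66.2% of 32851 windows of the same length for all genes. The letters CTTTGA of TCF/LEF factors and TAATTA of homeobox factors were in 0 of the 11, against 13.8% and 4.84% of all windows. The Ikaros letters TGGGAA were in 2, both of *Bad*, against 21.6%. These matches describe letters in the windows and are not measured sites.

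Levels were compared as log2(signal + 15.9), a scale that understates differences of dim genes, in a limma fit with 1 mean per background. A further fit took all 14048 probe sets past the filter on their own. Each background was set against the unweighted mean of the other 13, so the 14 comparisons share tumours. A difference was called at a Benjamini-Hochberg adjusted p under 0.05 over all 8810 genes. In 98 member-by-background comparisons, 8 were called higher and 7 lower, against 6.39% and 5.08% of all gene and background pairs. The 8 backgrounds with 0 calls had few called genes of any kind: 4.96% in Tal1, 1.03% in LMO1, 6.67% in Tal1-LMO2, 0.658% in labelled olig1-LMO1, 4.34% in E2A knockout, 1.56% in rag E2A knockout, 3.01% in labelled Nup98HoxD13 and 0.953% in Pokemon tumours. Differences among the 14 backgrounds were called for 6 of the 7 members by limma's F test, which also called 68.1% of all genes. A call by this test was the common case and does not set the members apart. Among all genes, the SD of the background means of *Bcl2l11* ranked at percentile 86.6 and that of *Bad* at percentile 16.7, the highest and lowest of the 7. With the 14 means in order, the signal ranges of neighbouring backgrounds overlapped in 12 of 13 pairs for *Bcl2l1*, *Mcl1* and *Bak1* and in all 13 for the other 4 members.

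*Bcl2* transcript was dim. Its single probe set (1422938_at) exceeded the array median in 9 of 47 tumours and read 3.36 to 225. The 6 TLX1 tumours held the 2 highest values, with 33.0, 61.5, 140, 52.5, 225 and 35.6. Ikaros Plastic tumours had the highest background mean and the smallest spread on the log2 scale, with 83.0, 88.6 and 78.2. Tal1 tumours had the lowest, with 3.38 and 19.6. None of the 14 *Bcl2* comparisons was called, and 1 had an unadjusted p under 0.05 (Tal1, log2 difference −1.32 ± 0.50 SE, n = 2, limma adjusted p = 0.128). The F test passed narrowly (adjusted p = 0.0496). It missed in 33 of 47 fits that left out 1 tumour, with adjusted p from 0.0139 to 0.122 over all of them.

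*Bcl2l1* was brighter in *Cdkn2a* knockout tumours. Its main probe set (1420888_at) read a lowest 201, median 393 and highest 478 in these 9 tumours, against 141, 267 and 562 in the other 38. The groups overlapped, and 7 of the 9 stood above the median of the others. The log2 difference was 0.43 ± 0.14 (SE, limma adjusted p = 0.0163), in a background where 16.1% of all genes were called higher. All 3 *Bcl2l1* probe sets past the filter were called higher there, the other differences being 0.96 ± 0.20 and 0.81 ± 0.21, against 19.5% of all probe sets called higher and 13.5% lower. This was the only *Bcl2l1* call among the 14 comparisons of its main probe set. A second probe set, 1420887_a_at, was called lower in TLX1 (−1.56 ± 0.24) and ThPOK tumours (−1.10 ± 0.32), where the main one was not called. The other one, 1426191_a_at, was called higher in labelled Nup98HoxD13 tumours (1.37 ± 0.34, 2.51% of all probe sets), where the main one was not called either. Both Pokemon tumours read low, 151 and 157, and only 1 p53 knockout tumour of the series was below them. That log2 difference of −0.79 ± 0.27 was not called (n = 2, adjusted p = 0.181).

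*Mcl1* was called in 2 backgrounds, lower in ThPOK and higher in TLX1 tumours. In ThPOK tumours the main probe set (1437527_x_at) read 1006, 980 and 946, against 1072 to 3204 in the other 44 tumours. By this probe set the 3 ThPOK tumours were thus the lowest of the series, without overlap, and the share of all genes that do the same is not given here. By background mean, ThPOK was also lowest for 1456243_x_at and 1456381_x_at. Tal1 was lowest for 1416880_at, p53 knockout for 1448503_at and TLX1 for 1416881_at. *Mcl1* fell there by 0.71 ± 0.17 on the log2 scale (SE, n = 3, limma adjusted p = 0.00686), where 5.21% of all genes were called lower. All 6 *Mcl1* probe sets had negative differences in ThPOK tumours and 2 of them were called (6.98% of all probe sets were called higher and 5.57% lower). Without ThPOK tumour 3 the difference of the main probe set was −0.68 (adjusted p = 0.0656). With the probe set of widest interquartile range it was −0.55 and was not called (limma adjusted p = 0.0698). In beta-catenin tumours the main probe set was not called (0.25 ± 0.17), while 1416881_at (1.10 ± 0.21) and 1448503_at (0.60 ± 0.14) were called higher, as were 11.4% of genes and 13.9% of probe sets. The probe set 1448503_at was also called higher in *Cdkn2a* knockout (0.28 ± 0.09) and lower in p53 knockout tumours (−0.43 ± 0.14).

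In TLX1 tumours *Mcl1* read 1411, 3204, 2049, 2050, 2351 and 2317, against 946 to 2603 elsewhere. Of the 6, 5 were above the median of the other 41 (1506) and 1 exceeded every other tumour. The main probe set was called higher by 0.52 ± 0.13 (SE, n = 6, limma adjusted p = 0.00192), where 19% of all genes were. The gene's probe sets went against each other: 4 of the 6 were called higher and 2 lower (18.1% and 19.8% of all probe sets). The lower ones were 1416881_at (−0.98 ± 0.15), with signals of 107 to 278 in TLX1 tumours, against 209 to 896 in the other 41, and 1448503_at (−0.37 ± 0.10). These 2 are the ones whose values least followed the main one over the 47 tumours (r = −0.14 and 0.15, against 0.83 to 0.97 for the others). The difference of the main probe set was 0.26 (adjusted p = 0.318) without TLX1 tumours 2, 5 and 6, and 0.03 (adjusted p = 0.951) once the 3'/5' ratio entered as a covariate. With each tumour left out in turn it lay between 0.41 and 0.64 and was called each time, also without TLX1 tumour 2. Summed signals of the 8 myeloid markers were 2543 to 40268 in TLX1 tumours and 864 to 9628 in the other 41, and their part in the TLX1 values was not tested.

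**Figure D1:**
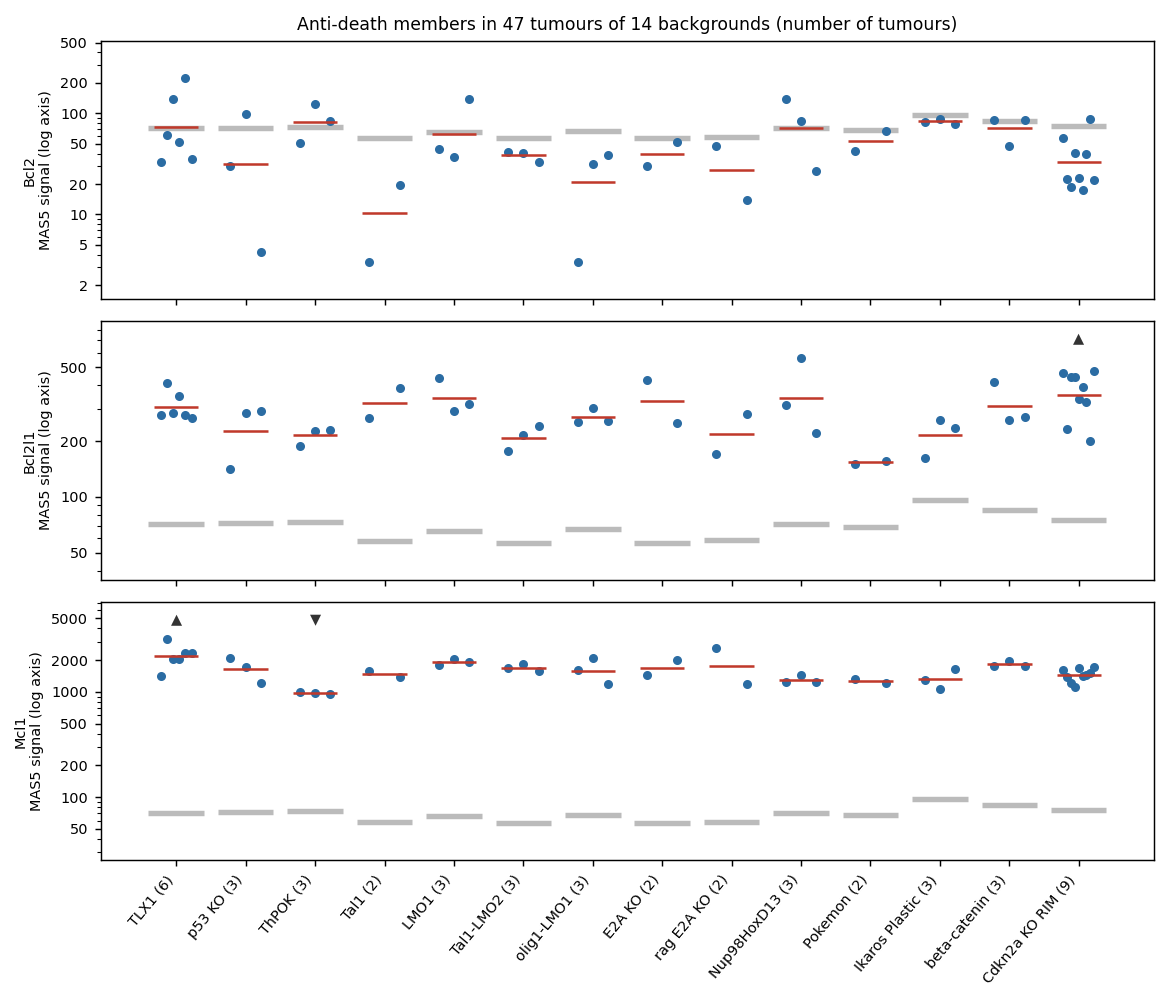
MAS5 signal (log axis, arbitrary units) of the 3 anti-death members in each of 47 tumours (points), by background with its number of tumours. Red bars are means of the log2 values, grey bars the median of the array medians, and triangles mark backgrounds called higher (up) or lower (down) than the mean of the other 13; RIM is retroviral insertional mutagenesis and KO knockout. *Bcl2* lies mostly below the grey bars, and the 3 ThPOK tumours, at 946 to 1006, are the lowest for the main *Mcl1* probe set.

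Signals of different probe sets have no common scale, so which guard dominated was read from each gene's place within its own range. Log2 values were scaled to mean 0 and SD 1 over the 47 tumours, and the guard furthest above its own mean was named. That guard was *Mcl1* in 6 backgrounds, *Bcl2* in 5 and *Bcl2l1* in 3. *Mcl1* led in TLX1 (mean 1.22 SD), LMO1 (0.75), rag E2A knockout (0.45), Tal1-LMO2 (0.29), p53 knockout (0.15) and labelled olig1-LMO1 tumours (0.05). *Bcl2* led in Ikaros Plastic (0.83), ThPOK (0.80), labelled Nup98HoxD13 (0.60), beta-catenin (0.59) and Pokemon tumours (0.20). *Bcl2l1* led in *Cdkn2a* knockout (0.73), E2A knockout (0.49) and Tal1 tumours (0.42).

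The lead was rarely uniform. In 4 backgrounds every tumour had the same leading guard: *Bcl2* in ThPOK, Pokemon and Ikaros Plastic tumours, and *Mcl1* in Tal1-LMO2 tumours. The *Bcl2* lead rested on dim signals. *Bcl2* exceeded the array median in 2 of 3 ThPOK, 0 of 2 Pokemon and 0 of 3 Ikaros Plastic tumours, and was called in none of these backgrounds. In *Cdkn2a* knockout tumours 7 of 9 were led by *Bcl2l1*. By tumour, *Bcl2* led in 17 of 47, *Bcl2l1* in 15 and *Mcl1* in 15. Margins were thin in labelled Nup98HoxD13 (*Bcl2* 0.60, *Bcl2l1* 0.59) and beta-catenin tumours (*Bcl2* 0.59, *Mcl1* 0.57). Quantile normalization gave *Bcl2* as the leader in Tal1-LMO2 and *Mcl1* in beta-catenin tumours, and a pseudocount of 1 gave *Bcl2l1* in labelled Nup98HoxD13 tumours. These ranks carry no test, and with the probe set of widest interquartile range per gene the leading guard differed in 6 backgrounds, TLX1 (*Bcl2* in place of *Mcl1*) and Ikaros Plastic (*Mcl1* in place of *Bcl2*) among them.

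**Figure D2:**
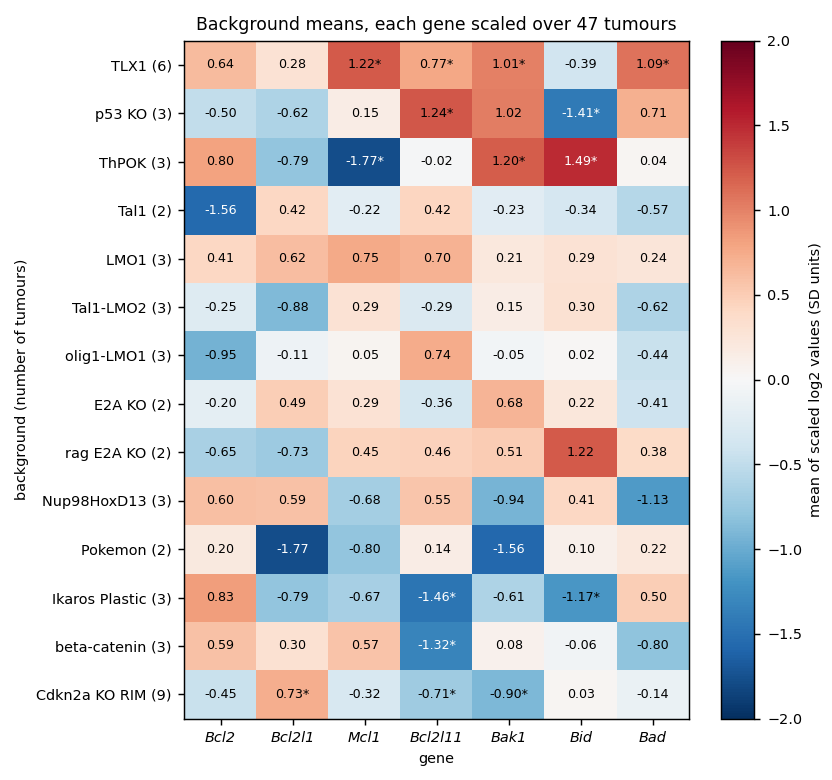
Mean of scaled log2 values (SD units, each gene to mean 0 and SD 1 over 47 tumours) for 7 genes (columns) in 14 backgrounds (rows, number of tumours); asterisks mark differences called against the mean of the other 13. The deepest values are *Mcl1* in ThPOK tumours (−1.77) and *Bcl2l1* in Pokemon tumours (−1.77), the second not called, and the highest is *Bid* in ThPOK tumours (1.49).

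Among the BH3-only killers, *Bcl2l11* varied most, with 5 calls by its main probe set. With the mean of its probe sets each of these 5 calls ended. The log2 differences were then −0.59 in Ikaros Plastic (limma adjusted p = 0.104), −0.43 in beta-catenin (0.278) and −0.02 in *Cdkn2a* knockout tumours (0.937). They were 0.51 in p53 knockout (0.169) and −0.43 in TLX1 tumours (0.0882). The main probe set of *Bcl2l11* (1456005_a_at) read 619, 266 and 644 in Ikaros Plastic tumours and 438, 508 and 624.6 in beta-catenin tumours, against a series median of 1256. In both backgrounds every tumour was below that median, and the ranges overlapped those of other backgrounds. *Bcl2l11* was called lower in both, with log2 differences of −1.45 ± 0.36 in Ikaros Plastic (SE, n = 3, limma adjusted p = 0.0039) and −1.32 ± 0.36 in beta-catenin tumours (n = 3, adjusted p = 0.00784), where 7.85% and 7.42% of genes were called lower. Of its 5 probe sets, 2 were called lower in each of these backgrounds (6.79% and 6.87% of all probe sets). All 5 differences were negative in Ikaros Plastic tumours and 3 of 5 in beta-catenin tumours. Leaving out Ikaros Plastic tumour 2 gave −1.05 (adjusted p = 0.133), and leaving out beta-catenin tumour 1 gave −1.20 (adjusted p = 0.0704). In beta-catenin tumours 3 of 4 B-cell markers (median difference 1.98) and 2 of 8 myeloid markers (1.52) were called higher. Summed B-cell signals were 1726, 382 and 681 there, against 56.9 to 1856 in the other 44, and summed myeloid signals 6069, 8193 and 9628, against 864 to 40268. Their part in the beta-catenin values was not tested.

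The 9 *Cdkn2a* knockout tumours had *Bcl2l11* signals with a lowest of 345, a median of 824 and a highest of 1349, against 266, 1537 and 3729 in the other 38, so the groups overlapped. The main probe set was called lower by 0.74 ± 0.22 (limma adjusted p = 0.0105), where 14.6% of genes were. Another *Bcl2l11* probe set, 1426334_a_at, was called higher there (0.46 ± 0.15), so the direction depended on the probe set.

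High *Bcl2l11* was seen in p53 knockout tumours, with 2994, 2285 and 2463. Of the other 44 tumours, which ran from 266 to 3729, 4 exceeded the lowest of them. The log2 difference was 1.13 ± 0.36 (SE, n = 3, limma adjusted p = 0.0206), where 12.4% of genes were called higher, and a second probe set was called higher too (0.75 ± 0.27, 11.7% of probe sets). Without p53 knockout tumour 2, the tumour low in T-cell markers, it was 1.21 (adjusted p = 0.0853), and without tumour 1 it was 1.02 (adjusted p = 0.0853). With array weights it was 1.19 (adjusted p = 0.199). In TLX1 tumours *Bcl2l11* read 873, 1766, 1599, 3729, 3344 and 1591. The main difference was 0.68 ± 0.26 (n = 6, limma adjusted p = 0.0446), where 19% of genes were called higher. The call ended in 17 of 47 fits that left out 1 tumour. It also ended without TLX1 tumours 2, 5 and 6 (0.54, adjusted p = 0.357) and after adjusting for the 3'/5' ratio (0.39, adjusted p = 0.693). Array weights (0.57, adjusted p = 0.193) and the number in the tumour titles as a block (0.30, adjusted p = 0.504) ended it too. In TLX1 tumours 1 of the *Bcl2l11* probe sets was called higher and 3 lower (18.1% and 19.8% of all probe sets), down to −1.65 ± 0.30 for 1435449_at.

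**Figure D3:**
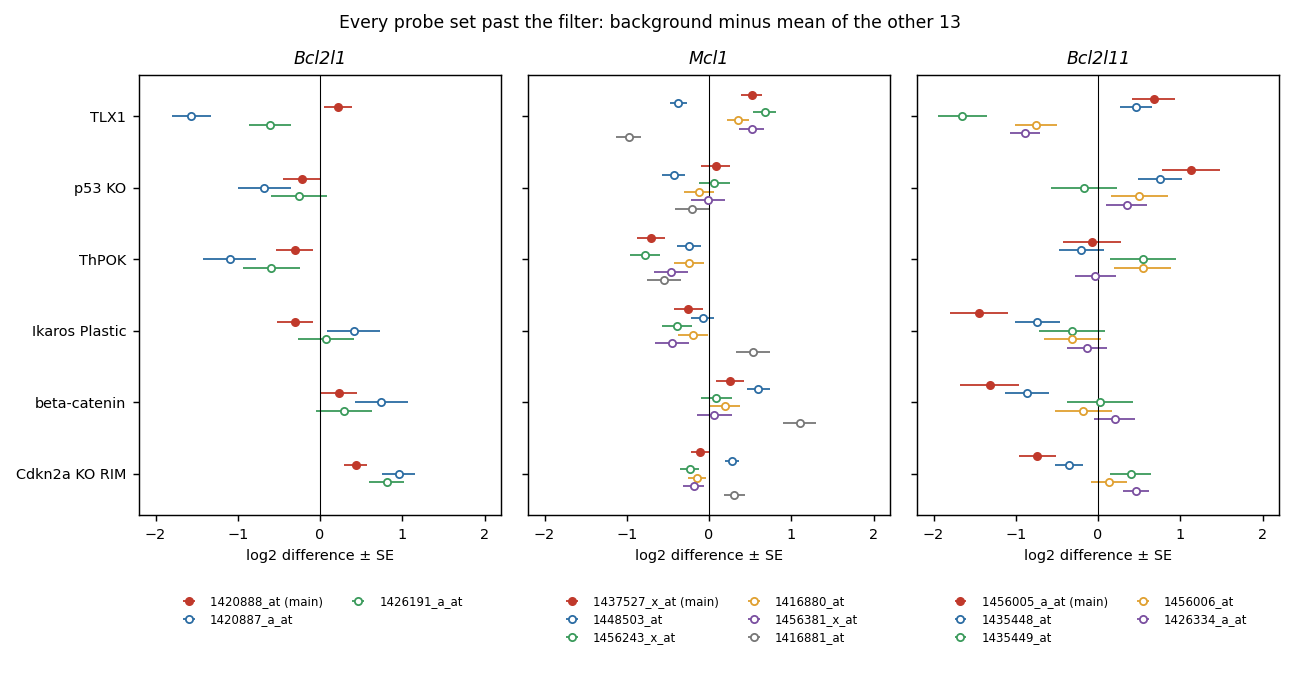
Log2 difference ± SE of each background from the mean of the other 13, for every probe set past the filter of *Bcl2l1*, *Mcl1* and *Bcl2l11* in 6 backgrounds; filled points are the probe sets that stood for the gene, open points the others. In *Cdkn2a* knockout tumours the 3 *Bcl2l1* points lie right of 0, and in TLX1 tumours the *Mcl1* and *Bcl2l11* points lie on both sides.

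*Bid* stood out in ThPOK tumours, which read 439, 1379 and 1693. Tumours 2 and 3 were above every other tumour of the series (at most 1051) and tumour 1 was not. The log2 difference was 0.97 ± 0.31 (SE, n = 3, limma adjusted p = 0.0347), where 6.61% of genes were called higher. It was 0.60 (adjusted p = 0.393) without tumour 3 and 0.75 (adjusted p = 0.256) without tumour 2. Of the 2 *Bid* probe sets, 1 was called higher in ThPOK tumours. With the probe set of widest interquartile range the difference was 0.80 (limma adjusted p = 0.265), and with the mean of probe sets 0.89 (0.118). p53 knockout tumours were low, at 287, 213 and 343, and Ikaros Plastic tumours read 352, 158 and 516. *Bid* was called lower in both, with log2 differences of −0.98 ± 0.31 (n = 3, limma adjusted p = 0.0199, 9.34% of genes called lower) and −0.82 ± 0.31 (n = 3, limma adjusted p = 0.0488). The second *Bid* probe set (1448560_at) was called lower in p53 knockout tumours as well (−1.91 ± 0.46, 11.3% of probe sets), and in TLX1 tumours (−1.81 ± 0.34), where the main one was not called. Without p53 knockout tumour 2 the first value was −0.81 (adjusted p = 0.194). The Ikaros Plastic call ended in 30 of 47 fits that left out 1 tumour, with a difference of −0.37 without Ikaros Plastic tumour 2. It also ended with the probe set of widest interquartile range (−1.05, limma adjusted p = 0.0913) and with the mean of probe sets (−0.94, 0.0636).

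The main *Bad* probe set was called in TLX1 tumours and in no other background. TLX1 tumours read 165, 394, 203, 410, 176 and 320, against 85.8 to 284 elsewhere, so 3 of the 6 were above all other tumours. The log2 difference was 0.49 ± 0.16 (SE, n = 6, limma adjusted p = 0.0164), and the second *Bad* probe set was called higher too (0.44 ± 0.13). That second probe set was also called higher in p53 knockout (0.54 ± 0.17) and lower in *Cdkn2a* knockout tumours (−0.35 ± 0.11). Leaving out TLX1 tumour 2, 4 or 6 ended the call of the main probe set (adjusted p 0.0532 to 0.0941). It also ended without TLX1 tumours 2, 5 and 6 (0.38, adjusted p = 0.238) and after adjusting for the 3'/5' ratio (0.36, adjusted p = 0.488).

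*Bak1*, the pore former, was called higher in TLX1 and ThPOK tumours and lower in *Cdkn2a* knockout tumours. It read 429, 396, 407, 304, 304 and 397 in TLX1 tumours and 463, 382 and 344 in ThPOK tumours. In the 9 *Cdkn2a* knockout tumours it ran from 156 to 250 with a median of 208, entirely below both of those groups. The log2 differences were 0.48 ± 0.14 in TLX1 (SE, limma adjusted p = 0.00704), 0.57 ± 0.19 in ThPOK (adjusted p = 0.0392) and −0.46 ± 0.12 in *Cdkn2a* knockout tumours (adjusted p = 0.00253). Of all genes, 19% and 6.61% were called higher in TLX1 and ThPOK tumours, and 14.6% lower in *Cdkn2a* knockout tumours. Differences as wide were not called elsewhere. They were −0.79 ± 0.22 in Pokemon (n = 2, limma adjusted p = 0.0829) and −0.48 ± 0.19 in labelled Nup98HoxD13 tumours (n = 3, 0.167). In p53 knockout tumours the difference was 0.48 ± 0.19 (n = 3, 0.059). Leaving out any 1 of the 3 ThPOK tumours ended the ThPOK call (adjusted p 0.0944 to 0.243). The TLX1 call ended without TLX1 tumours 2, 5 and 6 (0.50, adjusted p = 0.0829) and after adjusting for the 3'/5' ratio (0.39, adjusted p = 0.356), and with the probe set of widest interquartile range the difference was −0.27 (adjusted p = 0.377). The *Cdkn2a* knockout call ended with the number in the tumour titles as a block (−0.34, adjusted p = 0.148). With the mean of the *Bak1* probe sets each of the 3 calls ended (TLX1 0.10, ThPOK 0.13, *Cdkn2a* knockout 0.026). A second *Bak1* probe set (1425716_s_at) exceeded the array median in 2 of 47 tumours and was called higher in *Cdkn2a* knockout (0.51 ± 0.20), against the main one, and in beta-catenin tumours (1.21 ± 0.33), where the main one was not called.

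**Figure D4:**
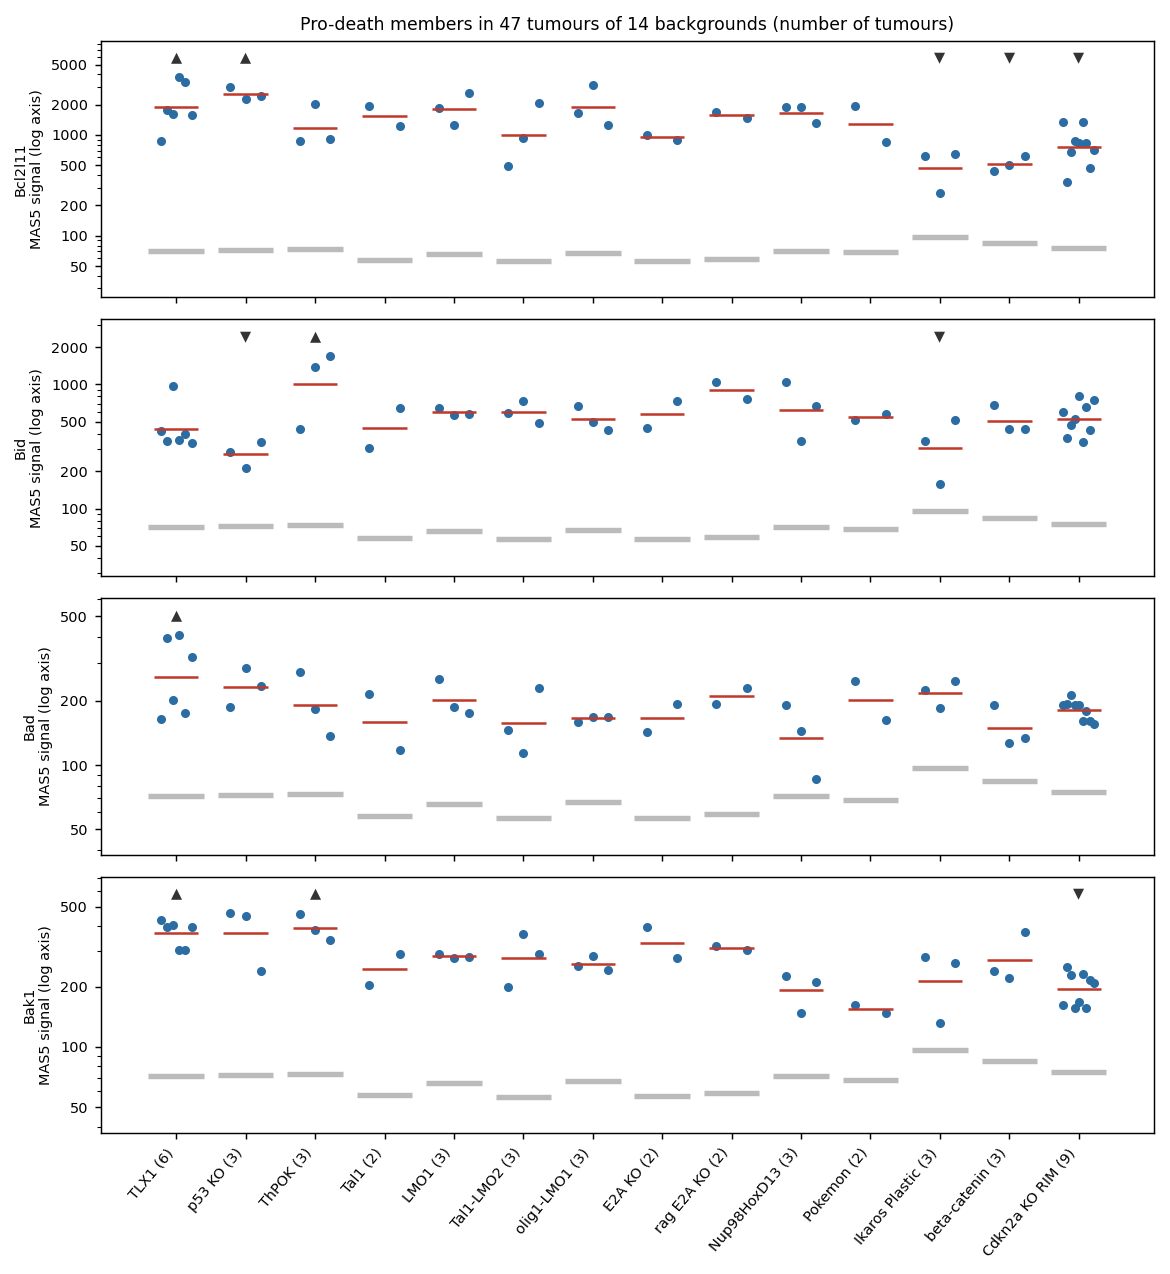
MAS5 signal (log axis, arbitrary units) of the 4 pro-death members in each of 47 tumours (points), drawn as for the anti-death members, with red bars for means of log2 values, grey bars for the median of the array medians and triangles for called backgrounds. *Bcl2l11* is low in Ikaros Plastic (266 to 644) and beta-catenin tumours (438 to 624.6), and 2 of 3 ThPOK tumours are the highest for *Bid*.

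The labels also contrast 6 TLX1 positive with 41 TLX1 negative tumours, which cannot be told apart from the TLX1 background. *Mcl1* (0.53 ± 0.15, limma adjusted p = 0.00815), *Bak1* (0.53 ± 0.19, 0.0334) and *Bad* (0.49 ± 0.16, 0.0229) were called higher, where 12.6% of all genes were. *Bcl2l11* (0.78 ± 0.36), *Bcl2* (0.59 ± 0.34), *Bcl2l1* (0.15 ± 0.20) and *Bid* (−0.28 ± 0.27) were not. By main probe sets none was called lower (8.86% of all genes were), and 0 had a negative difference with an unadjusted p under 0.05. Of all 21 probe sets of the members, 7 were called higher and 7 lower (12.5% and 15.7% of all probe sets). The lower ones were 3 of *Bcl2l11*, 2 of *Mcl1*, 1 of *Bcl2l1* (1420887_a_at, −1.70 ± 0.32) and 1 of *Bid* (1448560_at, −1.77 ± 0.41). The count of 3 was 0 with background as a random block, once the 3'/5' ratio entered as a covariate, without TLX1 tumours 2, 5 and 6, or without TLX1 tumour 2 alone, and it was 1 without TLX1 tumour 6. Calls over all 8810 genes, in either direction, were 2, 6, 132, 1224 and 1588 in these settings, in that order. The main fit called 1108 genes higher and 781 lower, so the loss of calls was not particular to the members.

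Each double background was compared with the single one in its title. In Tal1-LMO2 minus Tal1, labelled olig1-LMO1 minus LMO1, and rag E2A minus E2A knockout tumours, 0 of 21 member comparisons were called by limma (0.465%, 0.965% and 0.0454% of all genes), and 0 had an unadjusted p under 0.05. *Bcl2* gave the widest differences, −1.10 ± 0.56 in labelled olig1-LMO1 minus LMO1 tumours and 1.05 ± 0.63 in Tal1-LMO2 minus Tal1 tumours. With array weights the first of these was −1.58 ± 0.43 and was called (limma adjusted p = 0.0237). Array weights also gave more calls over all genes, 7378 by the F test against 5998 in the main fit.

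No pair of members passed a test of correlation over tumours. Of 23 pairs over the 47 tumours (the 21 pairs of members, and *Bcl2* and *Mcl1* with the interleukin-7 receptor gene *Il7r*), 5 had a two-sided permutation p under 0.05 and 0 passed adjustment (lowest adjusted p = 0.179). The highest was *Bcl2l11* with *Bak1* (r = 0.32, rho = 0.34, p = 0.0307). It was 0.24 without the 2 tumours farthest from the median of *Bcl2l11* and 0.0014 within backgrounds. *Mcl1* with its killer partner *Bcl2l11* had r = 0.31 over all tumours and 0.31 within backgrounds (adjusted p = 0.697).

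For each member the 3 other tested genes of most similar profile were read, by Pearson r over 47 tumours, which share arrays and scaling. *Bak1* had the closest, *Polr2a* (r = 0.81), a subunit of RNA polymerase II. *Mcl1* was most like *Stk38* (0.74), *Cdc42se1* (0.72) and *Myh9* (0.69), a non-muscle myosin heavy chain. *Bcl2* was most like *Ypel3* (0.71), *Sfxn3* (0.67) and *Ahr* (0.66), the aryl hydrocarbon receptor. *Bcl2l11* was most like *Rab14* (0.73), *BC147527* (0.72) and *Rragc* (0.70), and *Bid* most like *Grk6* (0.71), *Arhgdib* (0.71) and *Eefsec* (0.68). *Bcl2l1* (*Stx6*, 0.61) and *Bad* (*Cln8*, 0.62) had looser matches. Within backgrounds *Bcl2* had r = 0.74 with *Ypel3*, while *Bcl2l11* with *Rab14* was 0.22.

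The rest of the family was read from a list of 18 further genes, of which 8 were tested, and all 8 differed among backgrounds by the F test (68.1% of all genes did). Ikaros Plastic tumours had 3 of the 8 higher, where 15% of all genes were (16.4% of probe sets), and 0 lower. *Pmaip1*, which encodes the killer NOXA, a partner of MCL1, read 126 to 409 there and was 2.78 ± 0.43 higher (n = 3, limma adjusted p = 4.24e-05). *Bcl2l2*, the guard BCL-W, was 2.35 ± 0.39 higher (adjusted p = 9.75e-05), and *Bcl2l14* 2.02 ± 0.54 higher (adjusted p = 0.00764). The list's median difference in these tumours was 0.90, against 0.09 over all genes. Of the marker lists, 2 of 5 stromal (median difference 1.37), 2 of 8 myeloid and 1 of 6 endothelial genes were called higher there too. The summed stromal signal was 2498 to 7132 in Ikaros Plastic tumours, against 153 to 17350 in the other 44, and array medians were 94.6 to 106, against 49.6 to 96.6. Their part in these values was not tested.

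Other killers of the list were called in *Cdkn2a* knockout and p53 knockout tumours. In *Cdkn2a* knockout tumours the BH3-only gene *Bik* was called higher (1.35 ± 0.23, n = 9, limma adjusted p = 2.97e-05). So was *Bbc3*, which encodes the p53 target PUMA (1.07 ± 0.22, adjusted p = 0.000374). *Bcl2l14* was called lower (−1.67 ± 0.34), at 6.02 to 21.2, below every array median. Of all genes, 16.1% were called higher and 14.6% lower there. *Bik* was also called higher in TLX1 (0.88 ± 0.27, limma adjusted p = 0.0106) and beta-catenin tumours (1.01 ± 0.36, adjusted p = 0.0475), as were 19% and 11.4% of genes. *Bbc3* was called higher in beta-catenin tumours too (1.09 ± 0.35, n = 3, adjusted p = 0.0264). *Bok*, a BAX- and BAK-like gene, read 67.9 to 602 in p53 knockout tumours and was 2.12 ± 0.35 higher (n = 3, adjusted p = 8.15e-05), where 12.4% of genes were. It was also called higher in TLX1 tumours (0.76 ± 0.26, limma adjusted p = 0.0222), at signals of 37.4 to 67.5, against medians of 58.0 to 75.2 on those arrays. The part of RNA quality in the TLX1 values of *Bik* and *Bok* was not tested. Endothelial and stromal marker sums were 469 to 11755 and 3366 to 17350 in p53 knockout tumours, against 115 to 901 and 153 to 8714 in the other 44, and their part in the p53 knockout values was not tested. In Tal1-LMO2 tumours *Bok* and *Bcl2l2* were called lower (−1.27 ± 0.35 and −1.30 ± 0.39, n = 3), where 5.23% of all genes were, and 0 of the 8 were called higher (1.44%). Both were dim there, at 3.35 to 5.14 and 12.7 to 20.0, below every array median. All 5 stromal markers (median difference −2.98) and 3 of 8 myeloid markers were also called lower in Tal1-LMO2 tumours, and their part in these values was not tested. Of the 8 family genes 1, *Bcl2l14*, was called higher in ThPOK tumours (1.92 ± 0.54, n = 3), where 6.61% of all genes were.

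Downstream, 14 of 16 listed genes of the mitochondrial death pathway were tested and 9 differed among backgrounds by the F test, which called 68.1% of all genes. *Cycs*, the cytochrome c gene, was called higher in Tal1 (0.89 ± 0.16, n = 2, limma adjusted p = 0.000484) and ThPOK tumours (0.78 ± 0.14, n = 3, adjusted p = 0.000289) and lower in p53 knockout tumours (−0.67 ± 0.14, n = 3, adjusted p = 0.000734). *Vdac1*, a channel of the outer mitochondrial membrane, was called lower in beta-catenin (−0.59 ± 0.12) and Ikaros Plastic tumours (−0.40 ± 0.12) and higher in Tal1 (0.47 ± 0.14) and p53 knockout tumours (0.32 ± 0.12). *Casp9*, the initiator caspase of this pathway, was called higher in p53 knockout (0.87 ± 0.26) and TLX1 tumours (0.67 ± 0.19) and lower in *Cdkn2a* knockout tumours (−0.76 ± 0.16). It read 5.08 to 50.1 in *Cdkn2a* knockout tumours, below the median of each of their arrays. The part of RNA quality in its TLX1 value and of tumour 2 in its p53 knockout value was not tested. Of the 14 genes, 0 were called higher and 4 lower in *Cdkn2a* knockout tumours (16.1% and 14.6% of all genes). In TLX1 tumours 4 were called higher and 1 lower (19% and 12.5%), and in Tal1 tumours 3 higher and 1 lower (3.1% and 1.86%). The median difference of the 14 genes lay between −0.13 and 0.20 in the 14 backgrounds.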

How the data were processed

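Per the labels' protocols, total RNA was extracted with Trizol and labelled as biotinylated cRNA by the Affymetrix protocol. The authors deposited 1 linear intensity signal per probe set and array, computed by MAS5 as the submitters' processing notes have it (version and scaling target not given in the sources used here). The deposited signals of each array have the same trimmed mean (2% of values cut at each end, 250.063 to 250.129), so they were scaled before deposit, and no further scaling was applied. MAS5 sets probe sets on a linear scale with noisy low values, which log2(signal + 15.9), the 25th percentile of all signals, dampens.

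Of 22690 probe sets, 20380 carry 1 symbol in the platform table. A probe set was kept where it exceeded the array median in at least 2 arrays, and a gene was represented by its brightest such probe set on average (log2) (8810 genes). Of the 22 member probe sets, 21 passed. Fits used limma 3.58.1 in R 4.3.3 (lmFit, eBayes with an intensity trend) over all 47 tumours, grouped by title, with Benjamini-Hochberg adjustment over all tested genes. Correlations used 100000 permuted orders. On simulated data with 100 genes changed by 1 on the log2 scale, the fit recovered 80 for the TLX1 and 62 for the ThPOK comparison among 8810 genes.

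The members, the gene lists and the comparisons were chosen with earlier results of these data known. Genes named besides the members, *Lmo1* and *Il7r* came from the 2 lists and from the 3 most similar profiles per member. List genes were picked among the 4 called genes of lowest p in a comparison, and not all of those are named. Calls of a named gene in other backgrounds are given at any rank. Alternatives covered the pseudocount, quantile normalization, filters, the choice of probe set, array weights, title numbers as a block, RNA quality and leaving out each tumour. Same-numbered tumours of different backgrounds did not deviate together as a whole (median r −0.003 over 230 pairs, −0.28 to 0.32). Differently numbered ones had a median r of 0.004 over 772 pairs (−0.38 to 0.44). A median over all pairs cannot exclude pairing in some backgrounds. Precision is limited by the number of arrays. The p53 gene and some planned pairs are not analysed here.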

Additional observations from a re-analysis of the deposited data

Results flagged for a closer look

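*Bid* in TLX1 transgenic tumour 3 read 967, far from the other 5 TLX1 tumours, which read 339 to 422. The gap to the nearest of them took up 0.79 of the group's whole range on the log2 scale, above Dixon's critical value for 6 samples. The second *Bid* probe set was also highest in this tumour among the 6, at 181 against 6.17 to 61.1. Of 14 groups tested (7 genes in the groups of 6 and 9 tumours), this was the 1 that stood out, and chance alone flags about 1 in 20 groups.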

How the results depend on the processing

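The 8 higher and 7 lower calls over 98 comparisons became 3 higher calls with the title number as a replicate block, 4 after adding the 3'/5' ratio as covariate, 4 without TLX1 tumours 2, 5 and 6, and 5 with the mean of a gene's probe sets, a setting chosen after seeing the data that gave 4 lower calls. Over all genes, gene and background pairs called in either direction were 12303, 11472, 13143 and 14179 in these settings, in that order. The main fit called 7878 higher and 6271 lower. Title numbers showed no pairing over all pairs of tumours, and the block is one more setting. It ended the *Cdkn2a* knockout calls of *Bcl2l1* (0.52, limma adjusted p = 0.0543) and *Bak1* (−0.34, adjusted p = 0.148). The calls of *Bcl2l11* and *Bad* in TLX1 tumours and of *Bak1* and *Bid* in ThPOK tumours ended with it too. For TLX1 positive against negative tumours the 3 higher and 0 lower calls became 0 higher with the covariate, without TLX1 tumours 2, 5 and 6, and with background as a random block, and 1 higher and 2 lower both with the probe set of widest interquartile range and with the mean of probe sets. Calls over all 8810 genes, in either direction, were 6, 132, 2, 2641 and 2082 in these settings, in that order. The 0 calls in double against single backgrounds became 1 with array weights, which also raised the F test calls over all genes from 5998 to 7378. Leaving out each tumour gave 5 to 9 higher and 5 to 7 lower calls, 0 to 3 higher and 0 lower calls for TLX1 status, 4 to 6 for the F test and 0 for double backgrounds. The 5 higher calls came without ThPOK tumour 3.

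Signs turned only with the choice of probe set among the settings run. With the widest interquartile range, *Mcl1* was −0.98 and *Bak1* −0.27 in TLX1 tumours (−1.03 and −0.34 for TLX1 positive minus negative), and *Bak1* was −0.32 in ThPOK and 0.51 in *Cdkn2a* knockout tumours. With the mean of probe sets, *Bcl2l11* was −0.43 in TLX1 tumours, *Bak1* 0.026 in *Cdkn2a* knockout tumours and *Bcl2l1* −0.77 for TLX1 positive minus negative. The cause was not tested. The pseudocount of 1 left every member call on its side of the threshold, and quantile normalization ended the *Bcl2* F test alone (adjusted p = 0.061). Backgrounds of 2 tumours give SEs that small differences cannot pass, and *Bcl2*, near or below the array median in most tumours, is the least certain member.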
